A study of Mus musculus with 90 samples.

Results

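Daily rhythms of liver transcripts were measured in mice on control diet whose hepatocytes lacked the glucocorticoid receptor (GR, gene Nr3c1). The members were chosen by title from the control-diet count table: every library of genotype GR LKO taken at zeitgeber time (ZT) 0, 4, 8, 12, 16 or 20. They number 20 of the 42 libraries in that table and of the 90 in the series. The study sampled livers around the clock from both genotypes under night-restricted feeding and under caloric restriction, to learn how hepatic GR shapes daily gene expression. GR LKO mice carried GR fl/fl alleles together with Alb-Cre. The comparison group, 22 WT libraries, carried GR fl/fl alleles without Cre. All mice were male, on a C57BL/6J background, fed chow and entered the protocol of 8 weeks at 12 weeks of age. Both groups shared the control diet (ctrl.), ad libitum chow that was limited to the dark phase, from ZT12, during the last 7 days. Each time point held 3 GR LKO libraries, except ZT8 and ZT12 with 4 each. The albumin promoter drives Cre in hepatocytes, and GR in Kupffer, endothelial, stellate and other liver cells was not measured by cell type here. The libraries came from bulk tissue, where fewer cells of a type and less RNA per cell cannot be told apart. The paper describes the RNA as coming from biological replicates, at least 3, but the labels do not state that each library is a separate animal. The p-values thus measure the spread between these libraries.

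The circadian clock is a loop of transcription factors. ARNTL (BMAL1) pairs with CLOCK or NPAS2 at E-box sequences and activates the Per, Cry, Nr1d and Dbp genes, while PER and CRY proteins repress the pair and the REV-ERB proteins made from Nr1d1 and Nr1d2 repress Arntl. In the liver this loop acts together with the daily alternation of feeding and fasting, which times the synthesis of sterols, bile acids, glycogen and secreted proteins, and glucocorticoids are among the hormones that carry time of day to the organ.

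The deposited table gave between 10057544 and 16066590 estimated counts for each GR LKO library, with a median of 13218504.5. Levels below are CPM, the counts scaled to a common library size with edgeR and TMM factors. The targeted gene came first. Nr3c1 (ENSMUSG00000024431) ranged from 16.3 to 29.0 CPM over the 20 GR LKO libraries, with a median of 21.5, and from 73.0 to 118 CPM over the 22 WT libraries, with a median of 87.2. The groups did not overlap, among 2259 genes (17.6% of 12834 tested) whose level differed between genotypes in edgeR with time point in the model. Nr3c1 was lower in GR LKO by a log2 fold change of -1.96 (edgeR, Benjamini-Hochberg adjusted p = 9.49e-30), and 25.6% of the WT level remained. That remainder was not called rhythmic. It was 16.3, 19.2 and 20.8 CPM at ZT0 and 23, 26.3 and 29 CPM at ZT16 (JTK_CYCLE adjusted p = 1). The tissue label was met by its markers: 10 hepatocyte genes summed to between 91350 and 126200 CPM in the GR LKO libraries, with Alb the most abundant.

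Principal components of 12468 genes placed the GR LKO libraries in a loop ordered by time of day. The first component (19.6% of the variance) separated ZT12 and ZT16, all at 18.35 or more, from ZT0, ZT4 and ZT20, all at -17.81 or less. The second (13.1%) separated ZT8, all at 25.18 or more, from ZT16, all at -28.56 or less. A single library stood apart: on the third component (7.81%) replicate 1 of ZT20 lay at -66.7, with the 19 others between -12.8 and 20.5. In that library 357 of 7547 genes differed more than 2-fold from the mean of the other ZT20 libraries, against 58 to 167 genes for any other library and its own time point. Its stellate marker sum was 611 CPM against 396 and 297 CPM in the other ZT20 libraries, and its cholangiocyte marker sum was 155 against 63.8 and 39.8 CPM. The Kupffer and myeloid sum was 273 against 193 and 193 CPM. Lymphocyte markers summed to 15.45 against 8.09 and 6.98 CPM and neutrophil markers to 4.89 against 1.8 and 1.4 CPM. Exocrine pancreas markers were also higher there, and the hepatocyte, endothelial and erythrocyte sums were lower than in both. Mup15, a major urinary protein gene of a multi-copy family, stood at 11.2 CPM there against 737 and 939 CPM. The part of these cell types in its position was not tested, so counts are also given without it. Some abundant genes were listed at exactly 0 in single libraries. Of 8847 genes with a mean of at least 5 CPM, 114 were at 0 in at least 1 GR LKO library, 18 of them among the 3902 called rhythmic. Trip12 stood at 0 in replicate 1 of ZT20 and between 32.1 and 78.3 CPM elsewhere.

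**Figure D1:**
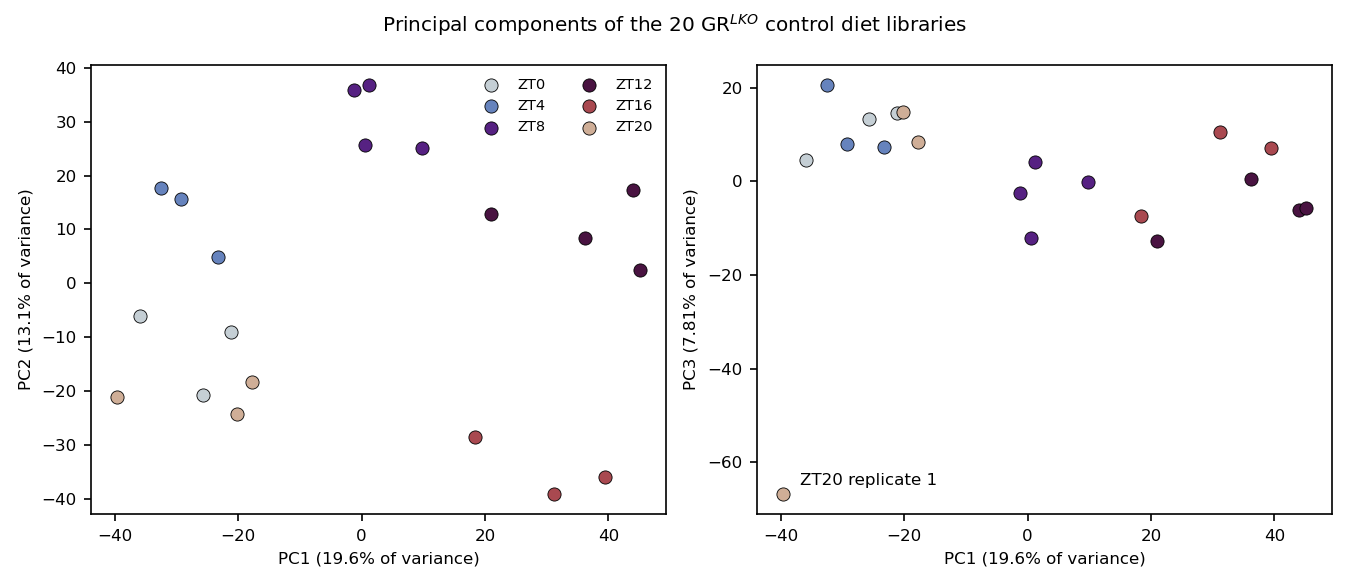
Principal components of the 20 GR LKO control-diet libraries over 12468 genes, each point a library coloured by time point, axes in component scores with the percent of variance. The libraries follow a loop by time of day, and replicate 1 of ZT20 lies at -66.7 on the third component.

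Much of the detected transcriptome was rhythmic without hepatocyte GR. JTK_CYCLE, a rank test for 24 h cycles with an exact null distribution, called 4748 of 18659 genes (25.4%) at an adjusted p under 0.05 (Benjamini-Hochberg) and a JTK amplitude over 0.1. The gene just inside the p threshold stood at 0.0488 and the next outside at 0.052, and 211 genes passed the p threshold with a smaller amplitude. Leaving out ZT20 replicate 1 gave 4924 genes, of which 4426 were shared. The smallest adjusted p, 4.12e-07, belonged to Eps8l2, which encodes an actin-regulating protein and peaked at ZT0.65 with an amplitude of 0.89. Amplitudes and peak times come from a cosinor curve fitted with limma to log2 CPM. The amplitude is the distance from mean to peak in log2 units, and errors are standard errors from all 20 libraries. It could be fitted for 4653 of the called genes, and the other 95 were too weakly expressed. The median amplitude was 0.33, with quartiles of 0.22 and 0.53, which corresponds to a peak 1.59 times the trough. For comparison, the median over all 12468 genes that could be fitted was 0.23. The median standard error was 0.0592 for the amplitude and 0.739 h for the peak. Large cycles were the minority: 1308 genes (28.1%) spanned more than 2-fold from trough to peak, 258 (5.54%) more than 4-fold and 54 (1.16%) more than 10-fold.

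Peaks covered every hour of the day but gathered around the turn from night to day and again before dusk. By windows of 4 h centred on the sampling times, 1002 genes (5.37% of those tested) peaked around ZT0, 646 (3.46%) around ZT4, 831 (4.45%) around ZT8, 855 (4.58%) around ZT12, 741 (3.97%) around ZT16 and 578 (3.1%) around ZT20. The fullest hour ran from ZT0 to ZT1 with 294 genes, and the emptiest from ZT18 to ZT19 with 124. In all, 2482 peaks (53.3%) fell in the light phase and 2171 (46.7%) in the dark phase. Genes of the ZT0 window swung most, with a median amplitude of 0.47, and those of the ZT12 window least, with 0.27. The ZT4, ZT8, ZT16 and ZT20 windows had medians of 0.35, 0.29, 0.28 and 0.38. Abundance moved the other way: the median gene of the ZT0 window had 12.1 CPM and that of the ZT8 window 29.5 CPM. Of the genes with more than 4-fold cycles, 86 peaked around ZT0, 37 around ZT4, 24 around ZT8, 34 around ZT12, 31 around ZT16 and 46 around ZT20. In most called genes every library of the highest time point lay above every library of the lowest. This held for 951 of 1002 genes in the ZT0 window, 629 of 646 in ZT4 and 812 of 831 in ZT8. It held for 820 of 855 in ZT12, 728 of 741 in ZT16 and 557 of 578 in ZT20. A lack of overlap in the genes named below is thus common to called genes. Without ZT20 replicate 1 the genes peaking in the ZT0 window numbered 984, in the ZT4 to ZT16 windows 741, 847, 787 and 833, and the genes peaking in the ZT20 window 641.

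**Figure D2:**
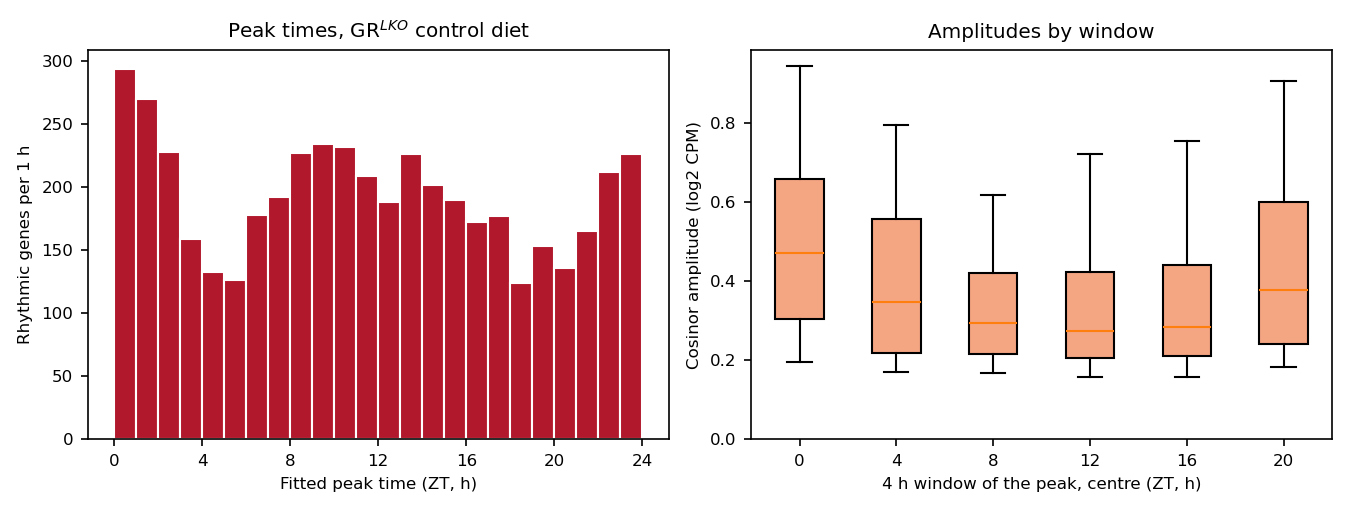
Peak times of the 4653 rhythmic GR LKO genes with a fitted curve, as genes per hour, and their amplitudes in log2 units by 4 h window. The hour from ZT0 holds 294 genes and the ZT0 window the highest median amplitude, 0.47.

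The core clock ran with large amplitude. Of 19 listed core clock genes 15 were called (78.9%, against 25.4% of all genes), and their median amplitude of 1.88 exceeded the 0.33 of all called genes. The activating arm peaked at dawn. Arntl, which encodes BMAL1, stood at 24.6, 25.7 and 30.03 CPM at ZT20 and 25.3, 26.4 and 27.7 CPM at ZT0, and at 0, 0, 0.619 and 0 CPM at ZT12. Every library of ZT20 and ZT0 was thus above 24 CPM while 3 of the 4 at ZT12 were listed at 0. Its cosinor peak was ZT23.1 ± 0.42 h, with an amplitude of 3.38 ± 0.36 (JTK_CYCLE adjusted p = 3.25e-06). Npas2, which encodes the alternative partner of BMAL1, read 15.8, 16.9 and 16.8 CPM at ZT0 and 0, 0 and 0.0789 CPM at ZT16, without overlap. It peaked at ZT23.9 ± 0.31 h with an amplitude of 3.50 ± 0.28 (adjusted p = 0.00215). Clock itself was not called (adjusted p = 0.0764). Its ZT20 libraries held 13.1, 12.7 and 12.2 CPM and its ZT12 libraries 0, 2.14, 0 and 0 CPM, but 5 of the 20 libraries were listed at 0. Leaving out a ZT0 library brought Clock past the threshold, with adjusted p values of 0.0221, 0.0357 and 0.0462 without replicates 1, 2 and 3. The Clock rhythm also passed in the limma cosinor (0.00625) and in the edgeR test for any difference between time points (0.0373). In all it was under 0.05 in 5 of 29 alternatives, and it was highest at 0.207 in the DESeq2 cosinor.

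The repressors followed one another from dusk to late night. Per1 read 48.8, 28.6, 31.2 and 30.05 CPM at ZT12 and 1.09, 1.96 and 1.75 CPM at ZT4, a swing of 13.8-fold in the fit with its peak at ZT12.9 ± 0.46 h (adjusted p = 0.000398). All 4 ZT12 libraries exceeded all 3 of ZT4 more than 10-fold. Per3 peaked at ZT12.4 ± 0.25 h, from 3.99, 7.01 and 5.29 CPM at ZT0 to 76.6, 75.8, 91.4 and 80.5 CPM at ZT12 (amplitude 2.11 ± 0.13, adjusted p = 4.16e-05). Per2 came later. It rose from 4.41, 6.89 and 5.42 CPM at ZT4 to 99, 106 and 126 CPM at ZT16, with a peak at ZT15 ± 0.34 h and an amplitude of 1.88 ± 0.18 (adjusted p = 8.32e-06). Its ZT0 libraries were uneven, at 8.72, 39.4 and 12.7 CPM. Cry1 closed the sequence with 51.4, 48.3 and 44.4 CPM at ZT20 against 5.54, 4.13, 4.16 and 5.27 CPM at ZT8. The groups were far apart, and the fit gave a peak at ZT20.0 ± 0.19 h and an amplitude of 1.54 ± 0.08 (adjusted p = 1.92e-05). Cry2, its paralogue, moved little: 62.4, 49.9, 52.9 and 55 CPM at ZT8 against 33.7, 32.1 and 32.5 CPM at ZT0 (amplitude 0.34 ± 0.05, peak ZT11.2 ± 0.57 h, adjusted p = 0.00277). Ciart, which encodes the repressor CHRONO, was low at ZT0 with 0.23, 0.52 and 0.198 CPM and high at ZT12 with 21.2, 20.2, 18.5 and 19.8 CPM. Its peak of ZT12.1 ± 0.21 h fell between those of Cry2 and Per3, at an amplitude of 3.15 ± 0.17 (adjusted p = 5.96e-05).

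The REV-ERB genes peaked in the middle of the light phase, ahead of the Per genes. Nr1d1, which encodes REV-ERBα, stood at 182, 181, 161 and 135 CPM at ZT8 and 3.06, 2.29 and 2.28 CPM at ZT20. No library overlapped, and the fitted span was 60.4-fold with a peak at ZT7.4 ± 0.28 h (adjusted p = 3.25e-06). At ZT0, as the gene rose, its libraries read 23.3, 2.97 and 22.6 CPM, so replicate 2 was still at the night level. Nr1d2 followed at ZT9.41 ± 0.31 h, from 17.8, 10.3 and 16.3 CPM at ZT20 to 144, 142, 123 and 141 CPM at ZT8 (12.1-fold in the fit, adjusted p = 1.9e-06). The same replicate of ZT0 was lowest there too, at 21.2, 6.63 and 21.1 CPM, and was the high value of Per2. Bhlhe41 (DEC2), a repressor that binds E-boxes, peaked at ZT10.4 ± 0.33 h with an amplitude of 2.26 ± 0.18, while its relative Bhlhe40 (DEC1) peaked at ZT12.5 ± 0.59 h with 0.78 ± 0.12 (adjusted p = 0.000162 and 0.0117). Csnk1d, a kinase gene that acts on PER stability, barely moved, with an amplitude of 0.12 ± 0.03 (adjusted p = 0.0182). Rora, Csnk1e and Fbxl21 were not called, with adjusted p values of 0.215, 0.338 and 0.0921 and means of 71.5, 7.5 and 1.42 CPM. The Fbxl21 rhythm passed at 0.0469 and 0.0463 without replicates 1 and 3 of ZT16, and at 0.0493 in the limma cosinor. With the replicate number as a block in the edgeR cosinor, Fbxl21 passed at 0.0455. The Rora rhythm passed in the edgeR, limma and DESeq2 cosinor tests (0.0469, 0.0435 and 0.0316). Both the Rora and the Csnk1e rhythm passed in the edgeR test for any difference between time points (0.0111 and 0.0405). Of 29 alternatives, Rora was under 0.05 in 5, Csnk1e in 1 and Fbxl21 in 4.

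**Figure D3:**
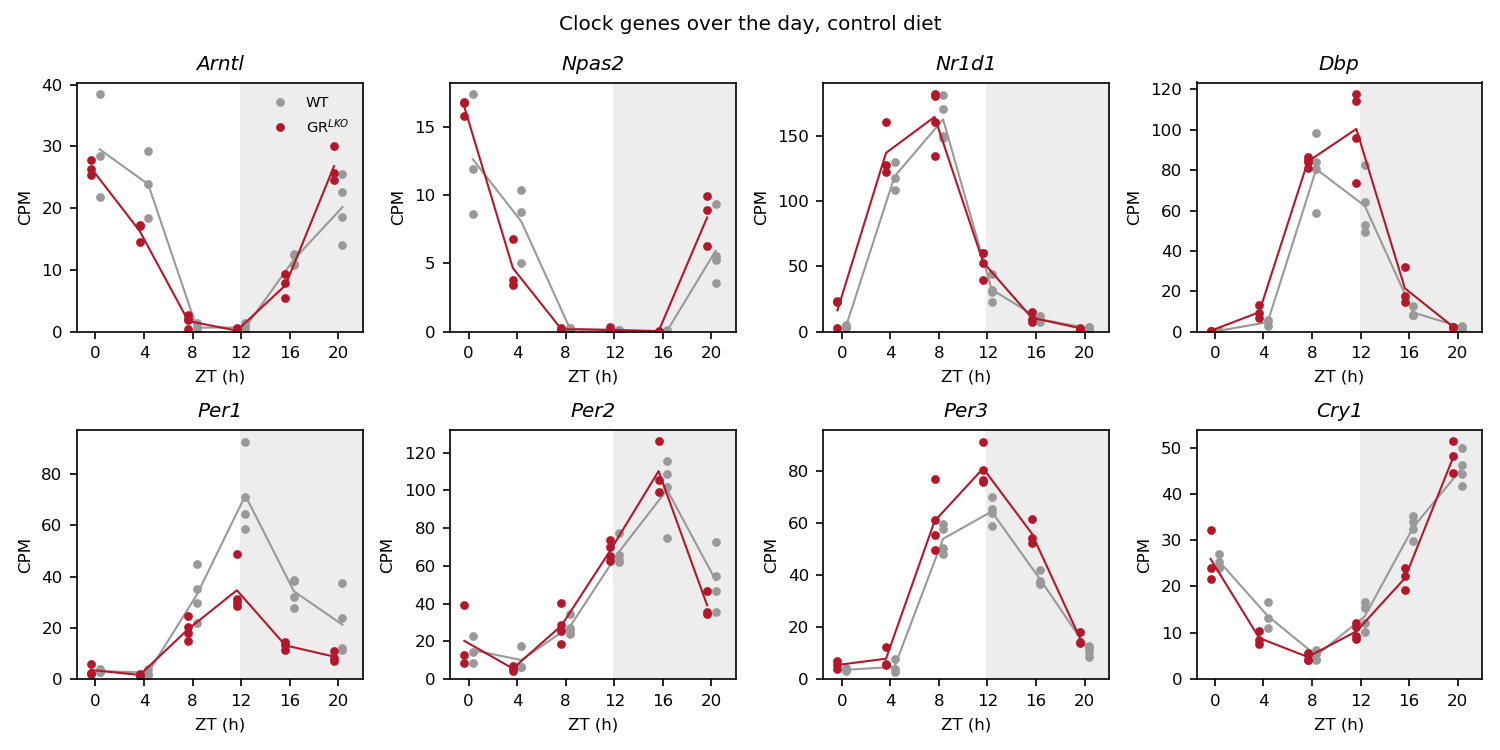
CPM of clock genes by time point in GR LKO and WT control-diet libraries, a point for each library and a line for the mean, with the dark phase shaded. In GR LKO Arntl is highest at ZT20 and ZT0, Npas2 at ZT0, Nr1d1 at ZT8, Per1, Per3 and Dbp at ZT12, Per2 at ZT16 and Cry1 at ZT20.

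Direct outputs of the clock were gathered at dusk. Of the 12 listed output genes 11 were called (91.7%, beside 25.4% of all genes). Of these, 9 peaked in the ZT12 window, and the median amplitude of the called genes was 1.28. Dbp, which encodes a D-box activator, had the largest amplitude of the list. It read 0.413, 0.38 and 0.362 CPM at ZT0 and 118, 114, 96.1 and 73.6 CPM at ZT12, a fitted span of 178-fold with a peak at ZT10.8 ± 0.19 h (adjusted p = 1.9e-06). Its relatives Tef and Hlf peaked close by, at ZT11.5 ± 0.16 h and ZT11.6 ± 0.8 h, with amplitudes of 1.40 ± 0.06 and 0.41 ± 0.08 (adjusted p = 1.9e-06 and 0.0349). The call of Hlf was lost without replicate 4 of ZT12 (0.0623) and without replicates 1 or 2 of ZT16 (0.0579 and 0.059). Nfil3, which encodes the repressor at the same D-boxes, ran in opposite phase, with 62.6, 38.8 and 56.1 CPM at ZT0 and 12.4, 12.3, 11.4 and 8.92 CPM at ZT8 and a peak at ZT21.8 ± 0.33 h (adjusted p = 5.96e-05). The remaining outputs are enzymes and regulators. Usp2, a ubiquitin protease, spanned 23.1-fold and peaked at ZT12.9 ± 0.4 h. Alas1, the first enzyme of heme synthesis, rose from 39.6, 24.3 and 90.6 CPM at ZT4 to 895, 823, 612 and 519 CPM at ZT12. Por, the electron donor of the cytochromes P450, peaked at ZT11.3 ± 0.32 h, Gys2, the liver glycogen synthase, at ZT12.3 ± 0.26 h, and the cell cycle kinase gene Wee1 at ZT12.5 ± 0.38 h. Coq10b, which takes part in coenzyme Q handling, peaked at ZT12.5 ± 0.24 h and Tsku, which encodes a secreted liver protein, at ZT15.2 ± 0.58 h. Adjusted p values of these 7 genes lay between 0.000162 and 0.00462. Lpin1, a phosphatidate phosphatase gene, was not called (adjusted p = 1), with values scattered inside a time point, such as 18.6, 3.41, 10.4 and 78.6 CPM at ZT12 and 50.5, 2.91 and 4.51 CPM at ZT16.

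Promoters of clock genes are shown because letters known to be bound by clock factors can be read in them. RefSeq promoters on GRCm38.p6, from 250 bases before to 50 after a gene start, were available for 12648 of the tested genes. Both strands were searched for the E-box CACGTG, the D-box TTATGNAA and the ROR element TAGGTCA. Of all 32851 promoters, 7.15% held the E-box, 3.38% the D-box and 2.61% the ROR element. The E-box was present in 10.6% of the tested genes, in 15.4% of rhythmic genes peaking around ZT8, 14.9% around ZT12, and 11, 11.7, 10.8 and 12.2% in the ZT0, ZT4, ZT16 and ZT20 windows. Among genes with more than 4-fold cycles, the E-box was in 7 of 63 peaking around ZT0, 2 of 24 around ZT4, 2 of 18 around ZT8, 6 of 26 around ZT12, 2 of 21 around ZT16 and 6 of 27 around ZT20. The D-box was in 0, 2, 1, 6, 1 and 1 of the same genes. The ROR element was in 2.52% of tested genes and in 4.55% of those peaking around ZT0. The stretches below carry the E-box in capitals, and all but Cry1, which peaked at ZT20.0, belong to genes that peaked between ZT10.4 and ZT12.9. A match describes letters only.
Per1 (chr11:69098763-69098808, plus strand): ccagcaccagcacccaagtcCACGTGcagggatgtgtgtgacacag
Ciart (chr3:95882247-95882364, minus strand): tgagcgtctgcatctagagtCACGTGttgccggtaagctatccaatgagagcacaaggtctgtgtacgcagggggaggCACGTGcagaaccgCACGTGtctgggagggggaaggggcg
Bhlhe41 (chr6:145865548-145865593, minus strand): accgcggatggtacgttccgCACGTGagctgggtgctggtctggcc
Tef (chr15:81802526-81802571, plus strand): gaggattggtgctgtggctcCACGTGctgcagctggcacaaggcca
Coq10b (chr1:55052672-55052717, plus strand): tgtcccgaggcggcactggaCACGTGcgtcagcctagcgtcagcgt
Cry1 (chr10:85185089-85185134, minus strand): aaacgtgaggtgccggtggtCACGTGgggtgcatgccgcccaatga

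The D-box was found in 2 of 14 core clock and 1 of 10 output genes with a promoter, against 2.92% of tested genes. For the E-box these were 4 of 14 and 2 of 10, and outside the clock lists the D-box was in 10 of 14 major urinary protein genes. These are near-identical copies, so the 10 are not independent. Of the 21 tested, 4 were called rhythmic (19%, beside 25.4% of all genes). Peaks of the 3 genes shown ran from ZT12.4 to ZT12.9. Capitals mark the D-box, on either strand.
Per1 (chr11:69098905-69098948, plus strand): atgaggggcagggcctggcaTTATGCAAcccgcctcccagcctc
Per3 (chr4:151044796-151044890, minus strand): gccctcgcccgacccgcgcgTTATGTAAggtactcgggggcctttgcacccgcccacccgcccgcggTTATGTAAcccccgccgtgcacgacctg
Coq10b (chr1:55052588-55052635, plus strand): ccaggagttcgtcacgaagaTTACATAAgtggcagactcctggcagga

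The ROR element, in capitals, was found in the pair of genes that peaked around dawn at ZT21.8 and ZT23.1. In Arntl it lay just after the gene start.
Arntl (chr7:113207530-113207559, plus strand): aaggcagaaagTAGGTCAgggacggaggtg
Nfil3 (chr13:52981040-52981071, minus strand): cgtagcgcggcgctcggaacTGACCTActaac

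Around ZT0, the turn from night to day, the largest cycles after Npas2 and Arntl belonged to Loxl4 and Pdk4. Loxl4, a lysyl oxidase gene, read 10.4, 15.8 and 11.9 CPM at ZT0 and 0.196, 0.548, 0.397 and 0 CPM at ZT12 (peak ZT23.9 ± 0.29 h, adjusted p = 0.000122). Pdk4, whose kinase restrains pyruvate oxidation, read 56.7, 63.7 and 74.7 CPM at ZT0 and 3.14, 2.2, 7.9 and 2.82 CPM at ZT12. Pdk4 peaked at ZT23.4 ± 0.31 h (adjusted p = 0.000162). Among the lists with their fullest window here, the cell type markers set aside, sterol synthesis was the most tightly timed. Of 25 genes of cholesterol synthesis and uptake 19 were called (76%, beside 25.4% of all genes), 17 of them with a peak around ZT0. The mean peak of the called genes was ZT23.98 and their median amplitude 0.61. Srebf2, the master regulator of the pathway, had 72.6, 73.9 and 75.3 CPM at ZT0 and 36.7, 39, 37.7 and 50.2 CPM at ZT12 (peak ZT0.329 ± 0.45 h, adjusted p = 4.16e-05). Dhcr7, the last enzyme of the Kandutsch-Russell branch, had 131, 158 and 165 CPM at ZT0 and 45.1, 37.9, 63.5 and 75.6 CPM at ZT12 (peak ZT23.3 ± 0.44 h, adjusted p = 5.96e-05). Every ZT0 library of both genes lay above every ZT12 library. The largest amplitude of the list was 1.29, in Hmgcs1, which makes HMG-CoA for sterols. It was chosen after its values were seen.

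Fatty acid synthesis was split between late night and dawn. Of 23 genes 14 were called (60.9%, beside 25.4% of all genes), 5 around ZT0, 4 around ZT20 and 3 around ZT16. Their median amplitude was 0.95. Elovl3, a fatty acid elongase, swung most, from 6.57, 4.29, 9.52 and 14.2 CPM at ZT12 to 238, 206 and 123 CPM at ZT0 (peak ZT23.9 ± 0.42 h, adjusted p = 0.000122). At ZT20 its libraries read 32.7, 240.4 and 218 CPM, so the library that stood apart was also low here. Its call held without that library and without any other, at adjusted p values of at most 0.000427. Insig2, which retains the SREBP proteins in the endoplasmic reticulum, peaked at ZT0.538 ± 0.33 h with 264, 253 and 238 CPM at ZT0 (amplitude 1.26 ± 0.11, adjusted p = 5.96e-05). One-carbon and methionine metabolism had 13 of 24 genes called (54.2%), 5 of them around ZT0. Cdo1, a cysteine dioxygenase gene, peaked later, at ZT4.47 ± 0.53 h (amplitude 0.45 ± 0.06, adjusted p = 0.000398). Amino acid catabolism had 13 of 33 called (39.4%), 6 around ZT0, at a small median amplitude of 0.28. Gldc, of the glycine cleavage system, led the list with 218, 223 and 193 CPM at ZT0 and 47.1, 68.9, 68.8 and 65.3 CPM at ZT12 (peak ZT0.489 ± 0.29 h, adjusted p = 4.47e-07). Amdhd1, of histidine breakdown, peaked at ZT3.82 ± 0.51 h with an amplitude of 0.35 ± 0.05.

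Genes of non-parenchymal cells also peaked at dawn and in the early day, and their part in the ZT0 and ZT4 windows was not tested. Of 12 Kupffer and myeloid markers 10 were called (83.3%, beside 25.4% of all genes), with peaks from ZT0.932 to ZT3.71. Their summed level averaged 199.9, 343, 175, 112, 117 and 219.8 CPM from ZT0 to ZT20. Clec4f, the Kupffer cell lectin and most abundant of them, read 68.8, 47.6 and 78.9 CPM at ZT4 and 17.9, 25.8, 22.2 and 25 CPM at ZT12 (peak ZT2.24 ± 0.7 h, adjusted p = 0.00581). Endothelial markers were called in 7 of 10 (70%), all between ZT1.43 and ZT2.85, while their most abundant gene, Dpp4, which hepatocytes also express, was not (adjusted p = 1). Their sum ranged from 273 CPM at ZT16 to 388 CPM at ZT4. Stellate markers were called in 5 of 10, namely Pdgfrb, Reln, Dcn, Des and Ecm1, with mean sums of 235 CPM at ZT12 and 375 CPM at ZT0. The higher mean of 435 CPM at ZT20 was carried by replicate 1, with 611 against 396 and 297 CPM. Dcn, a matrix proteoglycan, was their most abundant gene and peaked at ZT23.2 ± 0.76 h (adjusted p = 0.00277). Ptprc, Cd79a and Ms4a1 were called among 9 lymphocyte markers (33.3%), whose sum ran from 4.03 CPM at ZT12 to 13 CPM at ZT4, and Csf3r among 5 neutrophil markers (20%). Krt19 and Sox9 were called among 6 cholangiocyte markers (33.3%), of which Spp1 was the most abundant and was not called (adjusted p = 1). Spp1 passed in 1 of 29 alternatives, at 0.0458 in the edgeR cosinor with the replicate number as a block. The lymphocyte, neutrophil and cholangiocyte shares were near the 25.4% of all genes. No erythrocyte, adipocyte or exocrine pancreas marker was called, their most abundant genes being Hbb-bs, Cfd and Cela2a (JTK_CYCLE adjusted p = 1, 0.45 and 0.131). Cela2a passed at 0.0141 without replicate 3 of ZT20. Ly6g, Plin1, Lep and Try4 were at 0 in every GR LKO library. Of the 10 hepatocyte markers 3 were called (30%, near the 25.4% of all genes), Fgb, Cyp2e1 and Trf. Alb was not, with 55291, 50065 and 62448 CPM at ZT0 and 50230, 47153, 53159 and 64648 CPM at ZT12.

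Around ZT4 the leading genes were Nlrp12, Egr1, Camk1d and Arhgap5. Camk1d, a calcium-dependent kinase gene, was the steadiest, with 186, 155 and 212 CPM at ZT4 and 25.8, 23.2 and 19.4 CPM at ZT16 (peak ZT2.02 ± 0.43 h, adjusted p = 0.000711). Egr1, an immediate early transcription factor, was high but uneven at ZT4 with 55.4, 12.7 and 15.1 CPM, and stood at 1.9, 0.56 and 0.395 CPM at ZT16 (adjusted p = 0.0093). Nlrp12 and Arhgap5 each had 2 libraries at 0 and kept their calls in 12 and 10 of the 20 fits that left out a library. Nlrp12 lost its call, at 0.0535 to 0.076, without ZT4 replicate 1, ZT12 replicates 1, 2 and 4, any ZT16 replicate and ZT20 replicate 1. Arhgap5 lost it, at 0.0585 to 0.127, without ZT0 replicate 2, any ZT4 replicate, ZT8 replicates 2, 3 and 4, ZT12 replicate 4, and ZT16 replicates 1 and 2. The Arhgap5 rhythm was at 0.136 in the DESeq2 cosinor. Bile acid genes peaked from dawn to dusk. Abcb11, the bile salt export pump, had 853, 759 and 858 CPM at ZT4 and 337, 332 and 315 CPM at ZT16, and Hsd3b7, a bile acid synthesis enzyme, 696, 583 and 668 CPM at ZT4 and 315, 375 and 267 CPM at ZT16. Neither gene overlapped between these times, and they peaked at ZT2.36 ± 0.3 h and ZT1.8 ± 0.36 h (adjusted p = 1.22e-05 and 0.000162). In the whole bile acid list 12 of 21 were called (57.1%), with 4 further peaks around ZT8 and 4 around ZT12. The fibrinogen genes Fga and Fgg peaked at ZT4.01 ± 0.5 h and ZT3.96 ± 0.53 h, with amplitudes of 0.35 ± 0.05 and 0.34 ± 0.05 (adjusted p = 0.00128 and 0.000523). They led an acute phase and complement list with 11 of 49 called, which at 22.4% was near the 25.4% of all genes. The proteasome list was near it as well, at 8 of 33 (24.2%). Its members Psmd11 and Psma5 peaked at ZT2.3 ± 0.34 h and ZT7.35 ± 0.57 h with amplitudes of 0.33 ± 0.03 and 0.26 ± 0.04.

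Around ZT8, late in the daily fast, Rgs16 had the largest cycle. This regulator of G protein signalling read 68.7, 71.5, 177 and 111 CPM at ZT8 and 0.178, 0.149 and 0.727 CPM at ZT0, a fitted span of 168-fold with a peak at ZT8.86 ± 0.43 h (adjusted p = 0.000162). Trib3, a pseudokinase that binds AKT, rose from 1.29, 1.36 and 1.34 CPM at ZT16 to 30.2, 25, 19.2 and 20.6 CPM at ZT8 (peak ZT6.99 ± 0.33 h, adjusted p = 8.75e-05). Autophagy and lysosome genes filled the day. Of 38 genes 26 were called (68.4%, beside 25.4% of all genes), 7 around ZT4, 10 around ZT8 and 8 around ZT12. Their median amplitude was 0.29, below the 0.33 of all called genes. Gabarapl1, an ATG8 family member, had 564, 551, 475 and 477 CPM at ZT8 and 165, 161 and 218 CPM at ZT20 (peak ZT7.5 ± 0.27 h, adjusted p = 5.96e-05). Bnip3, a mitophagy receptor, peaked toward dusk at ZT11.5 ± 0.28 h, with 274, 219, 267 and 247 CPM at ZT12 and 96.8, 112 and 114 CPM at ZT20 (adjusted p = 4.16e-05). The largest amplitude of the list, 1.61, was that of Depp1, a FoxO-induced gene chosen after its values were seen. Insulin and FoxO signalling had 14 of 25 called (56%), 6 around ZT8, with Trib3 and Ddit4 in front. Ddit4, an inhibitor of mTORC1, peaked at night instead, at ZT21.1 ± 0.35 h with an amplitude of 1.01 ± 0.09 (adjusted p = 4.16e-05). Of 32 nuclear receptors 18 were called (56.2%), 6 around ZT8, with Nr1d1 and Nr1d2 the 2 of lowest p.

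Glycogen and glucose genes peaked at several times of day. Of 15 glycogen genes 10 were called (66.7%), 4 around ZT8 and 2 around ZT12. Gys2 read 436, 385, 379 and 402 CPM at ZT12 and 112, 104 and 86.7 CPM at ZT4 (adjusted p = 0.000223), and Ugp2, which makes UDP-glucose, 439, 451, 413 and 447 CPM at ZT12 and 159, 252 and 225 CPM at ZT20 (peak ZT10.7 ± 0.39 h, adjusted p = 0.000298). These groups did not overlap. Gluconeogenesis had 5 of 15 called (33.3%, near the 25.4% of all genes), among them Foxo1, Pck1, Slc37a4 and Creb3l3. Pck1, the gene of PEPCK, was 3465, 1900, 2080 and 1654 CPM at ZT12 and 676, 235 and 260.3 CPM at ZT0 (peak ZT11.4 ± 0.77 h, amplitude 1.02 ± 0.20, adjusted p = 0.00462). Creb3l3, a liver transcription factor of the fasting response, peaked at ZT13.2 ± 0.98 h with an amplitude of 0.25 ± 0.06 (adjusted p = 0.00277). In glycolysis and glucose uptake 8 of 21 were called (38.1%). Slc2a2, the GLUT2 transporter, peaked at ZT10.0 ± 0.35 h with 423, 372, 484 and 529.6 CPM at ZT12 and 172, 193 and 209.6 CPM at ZT20 (adjusted p = 0.000223), and Pgk1, a glycolytic kinase gene, at ZT21.3 ± 0.57 h with an amplitude of only 0.17 ± 0.03 (adjusted p = 0.000398). Fatty acid oxidation and ketogenesis had 11 of 34 called (32.4%, near the 25.4% of all genes) and no common phase. Eci2, an enoyl-CoA isomerase, peaked at ZT10.8 ± 0.58 h (amplitude 0.47 ± 0.07, adjusted p = 5.96e-05), opposite to Pdk4.

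Detoxification genes peaked most often around ZT12. Of 50 xenobiotic metabolism genes 21 were called (42%, beside 25.4% of all genes), 11 of them in this window, with a median amplitude of 0.48. Por led the list beside Cyp3a25, a cytochrome P450 gene that peaked earlier, at ZT8.63 ± 0.48 h, with 1128, 991, 699 and 682 CPM at ZT8 and 389, 365 and 332 CPM at ZT20 (adjusted p = 0.000122). Among 20 genes of NAD synthesis and sirtuins 11 were called (55%). Nampt, the rate-limiting enzyme of NAD salvage, had 139, 109 and 117 CPM at ZT16 and 39.4, 42.8 and 48.4 CPM at ZT4 (peak ZT14.7 ± 0.25 h, adjusted p = 1.22e-05), and the mitochondrial deacylase gene Sirt3 peaked at ZT10.7 ± 0.58 h (amplitude 0.30 ± 0.04, adjusted p = 5.96e-05). Igfbp4, a binding protein of the insulin-like growth factors, led the growth hormone and IGF1 list, of which 9 of 18 were called (50%). It read 1676, 1608, 1662 and 1446 CPM at ZT12 and 861, 847 and 732 CPM at ZT0 (peak ZT13 ± 0.27 h, adjusted p = 5.46e-06), while Stat5b, which relays growth hormone, peaked at ZT1.29 ± 0.34 h. The large cycles of this window also included Ciart, Dbp and a pair of genes with unsteady values. ENSMUSG00000074828, which has no symbol, was at 0 in 8 libraries, among them all 3 of ZT4, and Hsd17b6, a steroid dehydrogenase gene, at 0 in 4. Hsd17b6 lost its call without replicate 2 of ZT0 (0.0517) and without replicates 1 or 2 of ZT12 (0.0663 and 0.0659). The Hsd17b6 rhythm also missed the threshold in the edgeR, limma and DESeq2 cosinor tests (0.053, 0.0706 and 0.245). For any difference between time points it stood at 0.266 in edgeR. ENSMUSG00000074828 lost its call in 15 of 20 such fits, at 0.0515 to 0.119, and kept it only without ZT0 replicate 1, ZT8 replicate 4, ZT16 replicate 3, or ZT20 replicates 1 or 2. The ENSMUSG00000074828 rhythm was at 0.123 in the edgeR and 0.524 in the DESeq2 cosinor.

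After food became available, most called protein folding genes peaked around ZT16 or ZT20. Of 20 heat shock and temperature-sensitive genes 17 were called (85%, beside 25.4% of all genes), 6 around ZT16 and 8 around ZT20. Their median amplitude was 0.59. Chordc1, a co-chaperone of HSP90, read 50.6, 53.9 and 57.5 CPM at ZT16 and 16.4, 17.3, 18.6 and 19.9 CPM at ZT8 (peak ZT17.5 ± 0.5 h, adjusted p = 0.000398). Rbm3, a cold-inducible RNA-binding protein gene, peaked earlier, at ZT13 ± 0.57 h, with an amplitude of 0.34 ± 0.05 (adjusted p = 0.000711). Hsph1, an HSP110 chaperone gene, had the largest amplitude of the list, with 25, 37.9 and 40.8 CPM at ZT16 and 0, 7.23, 0 and 0 CPM at ZT8, where 3 of 4 libraries were at 0 (adjusted p = 0.0093). The Hsph1 rhythm missed the threshold in the DESeq2 cosinor (0.0718). Endoplasmic reticulum folding genes went with them: 20 of 25 were called (80%), 8 around ZT16 and 8 around ZT20, with a median amplitude of 0.53. Xbp1, a transcription factor of the unfolded protein response, peaked before most of them at ZT13.3 ± 0.39 h, with 247, 305, 249 and 234 CPM at ZT12 and 129, 133 and 139.8 CPM at ZT0 (adjusted p = 0.000223). Creld2, Manf, Hyou1 and Hspa5, whose products fold secreted proteins, peaked at ZT17.2, ZT17.0, ZT17.2 and ZT17.5 and were chosen after their values were seen.

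Promoters of the heat shock list are shown because most of its called members peaked around ZT16 or ZT20 and the letters of the heat shock element could be searched. The element GAANNTTC, its own reverse complement, was in 7.86% of all promoters and in 7.33% of tested genes. It was in 9 of the 14 listed genes that had a promoter. The near-identical copies Hspa1a and Hspa1b carry the same stretch, so counts of either are uncertain, and Hspd1 and Hspe1 share a stretch read on opposite strands, so the 9 are not independent. The stretches carry the element in capitals.
Chordc1 (chr9:18292257-18292286, plus strand): caaccgGAACGTTCggGAAAATTCctgaag
Hspb1 (chr5:135887782-135887849, plus strand): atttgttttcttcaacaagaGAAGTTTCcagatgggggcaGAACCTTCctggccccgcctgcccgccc
Dnaja1 (chr4:40722324-40722371, plus strand): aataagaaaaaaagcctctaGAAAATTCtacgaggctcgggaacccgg
Hspe1 (chr1:55088044-55088091, plus strand): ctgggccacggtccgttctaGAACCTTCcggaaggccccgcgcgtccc
Hspa1b (chr17:34959315-34959362, minus strand): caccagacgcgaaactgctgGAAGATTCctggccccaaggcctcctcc

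Cytosolic ribosomal protein genes were called in 14 of 74 (18.9%, beside 25.4% of all genes and 30 of the 74 in WT), 12 of them around ZT16 and the others around ZT12, at a median amplitude of 0.14. Rps18 and Rpl24, of the small and large subunit, peaked at ZT14.6 ± 0.71 h and ZT14.7 ± 0.69 h, with 209.8, 214 and 213 CPM at ZT4 and 267, 272, 223 and 244 CPM at ZT12 for Rps18, and 146, 156 and 156 CPM at ZT4 and 184, 192 and 179 CPM at ZT16 for Rpl24 (adjusted p = 0.000523 and 0.000942). Of 51 ribosome biogenesis genes 23 were called (45.1%), 8 around ZT12 and 7 around ZT16. Mrto4, a ribosome assembly factor, peaked at ZT15.4 ± 0.51 h and Mybbp1a, a nucleolar protein gene, at ZT18.7 ± 0.48 h with 87.6, 76.3 and 92.4 CPM at ZT16 and 44.8, 44, 45.4 and 43.4 CPM at ZT8 (adjusted p = 8.75e-05 and 0.000523). Oxidative phosphorylation genes were called in 8 of 55 (14.5%), 6 around ZT16, at a median amplitude of 0.14. Atp5j, of the ATP synthase, and Ndufa5, of complex I, peaked at ZT15.6 ± 0.8 h and ZT16 ± 0.69 h with amplitudes of 0.11 ± 0.02 and 0.16 ± 0.03 (adjusted p = 0.00277 and 0.00359), and the Atp5j rhythm missed the threshold in edgeR for any difference between time points (0.0513). The largest cycles of the ZT16 window, beside Per2, were Mthfd1l, Gm12191 and Cyp2a4. Mthfd1l, of mitochondrial folate metabolism, read 11.4, 13.3, 10.3 and 8.45 CPM at ZT12, 8.37, 9.05 and 12 CPM at ZT16 and 0.772, 0.841 and 0.175 CPM at ZT4 (peak ZT14.5 ± 0.54 h, adjusted p = 0.00359). Gm12191, a predicted gene whose assignment is uncertain, was at 0 in 9 libraries and at 53.3, 54.6 and 29.8 CPM at ZT16 (adjusted p = 0.00337). Cyp2a4, of a multi-copy P450 family and so uncertain in assignment, was uneven at ZT16 with 20.2, 461 and 131 CPM and at 4.78, 1.97 and 15.3 CPM at ZT4. Its adjusted p was 0.0349, and 11 of 20 fits without a library kept the call. It was lost, at 0.0552 to 0.108, without ZT0 replicate 2, ZT4 replicates 1 and 2, ZT12 replicates 1, 2 and 3, ZT16 replicates 2 and 3, or ZT20 replicate 1.

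The remaining lists were spread over the windows. Cdkn1a, the cell cycle inhibitor p21, read 27.4, 9.56 and 11 CPM at ZT20 and 1.39, 0.659, 1.11 and 1.35 CPM at ZT12, and its peak of ZT22.6 ± 0.34 h fell in the ZT0 window (adjusted p = 0.000122). Of 33 cell cycle genes 18 were called (54.5%), 5 around ZT0 and 4 around ZT20. Mcm3, of the replicative helicase, was low in abundance with 9.47, 7.71 and 6.25 CPM at ZT20 and 2.55, 3.04, 3.86 and 3.42 CPM at ZT12 (peak ZT22 ± 0.48 h, adjusted p = 0.000298). Immediate early genes were called in 11 of 24 (45.8%), spread over 5 windows. Btg2, an antiproliferative factor, had 64.1, 23.6 and 22.4 CPM and Ier5, an inducible early gene, 9.67, 5.29 and 5.1 CPM at ZT20, with replicate 1, the library apart, highest in both. Without it the calls stood in the JTK_CYCLE test (with it, adjusted p = 0.000523 and 0.000711). Pnpla3, a lipid droplet hydrolase gene, read 22.3, 6.99 and 5.62 CPM at ZT20 and 0.0654, 0.365, 1.35 and 0.805 CPM at ZT12 (peak ZT20.3 ± 0.76 h, adjusted p = 0.00359), again with replicate 1 highest. Tra2a, a splicing regulator, peaked at ZT21.1 ± 0.96 h with 3 libraries at 0 (adjusted p = 0.000523), and the Tra2a rhythm missed the threshold in the DESeq2 cosinor (0.068) and in edgeR for any difference between time points (0.0504). Bcl9l, a coactivator of beta-catenin, was at 0 in 7 libraries, including all 4 of ZT8. Its adjusted p was 0.0283, and the call was lost, at 0.0505 to 0.07, without ZT4 replicates 1 and 3, any ZT8 replicate, ZT12 replicates 1, 2 and 4, or ZT16 replicate 3. The Bcl9l rhythm was at 0.114 in the DESeq2 cosinor. Iron and heme genes were called in 13 of 23 (56.5%), 5 around ZT20. Steap3, a ferrireductase gene, peaked at ZT0.167 ± 0.33 h and Slc39a14, an iron and zinc importer gene, at ZT11 ± 0.43 h (adjusted p = 8.75e-05 and 5.96e-05). Of 9 urea cycle genes 3 were called (33.3%, near the 25.4% of all genes), Asl, Nags and Slc25a15. The ornithine carrier Slc25a15 peaked at ZT22.8 ± 0.41 h (adjusted p = 0.000298). Of 21 major urinary protein genes, whose near-identical copies make assignment uncertain, 4 were called (19%, beside 25.4% of all genes): Mup3, Mup7, Mup14 and Mup18. Mup3 peaked at ZT12 ± 1.5 h and Mup18 at ZT2.3 ± 0.85 h (adjusted p = 0.0117 and 0.0182), and Mup18 missed the threshold at 0.0569 without replicate 3 of ZT4. The Mup3 rhythm missed it in the edgeR and limma cosinor tests (0.0773 and 0.0885) and in edgeR for any difference between time points (0.289).

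**Figure D4:**
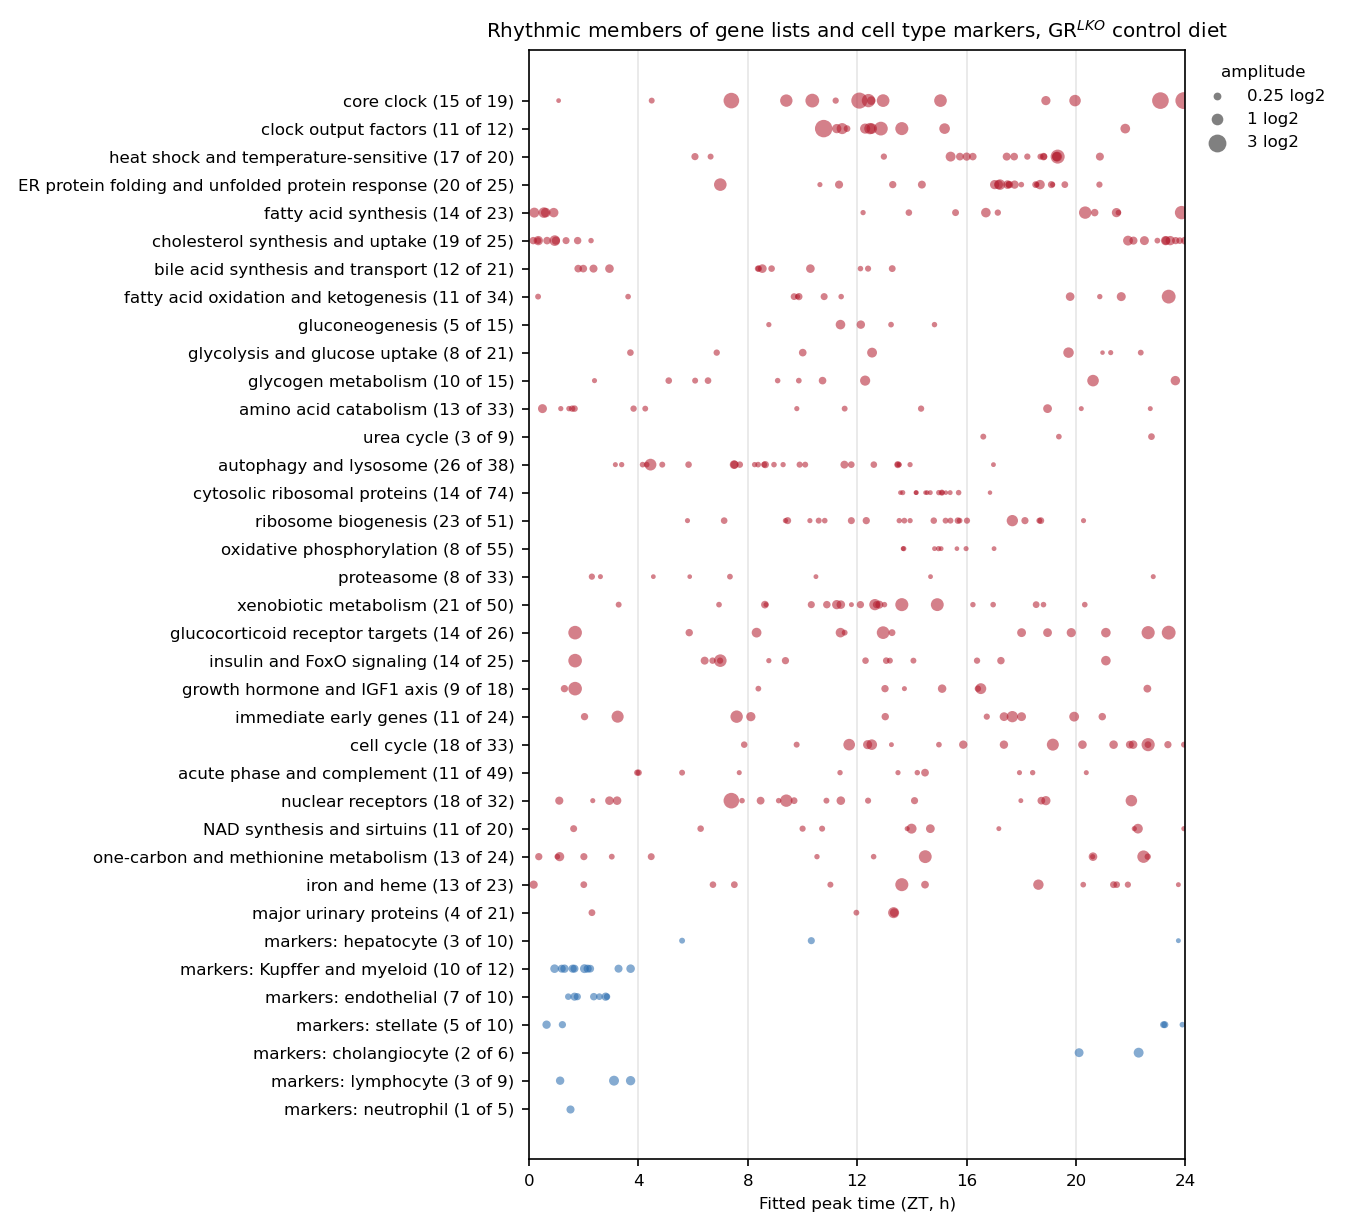
Rhythmic GR LKO members of each list at their fitted peak time, a point for each gene, larger for a larger amplitude in log2 units. The number called of the number tested stands beside each name, and marker lists are in blue. Cholesterol synthesis gathers around ZT0, clock outputs around ZT12 and both folding lists around ZT16 and ZT20.

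Some known GR target genes were rhythmic in these livers. Of 26 listed targets 14 were called (53.8%, beside 25.4% of all genes), against 16 in WT and 10 in both. The median amplitude was 1.01 over the 13 with a fitted curve. Their peaks were spread, with 4 around ZT12, 4 around ZT20 and 3 around ZT0. Ddit4 and Cdkn1a had the lowest p of the list. Ddit4 read 9.46, 13.8 and 8.26 CPM at ZT0 and 2.69, 2.25, 3.81 and 2.39 CPM at ZT8, without overlap (adjusted p = 4.16e-05). Fkbp5, a co-chaperone of GR, kept a small cycle with 17, 16.7, 15.2 and 10.5 CPM at ZT12 and 6.69, 8.11 and 9.01 CPM at ZT0 (amplitude 0.44 ± 0.07, peak ZT13.3 ± 0.63 h, adjusted p = 0.00277). Tsc22d3, which encodes GILZ, had 67.1, 115 and 53.9 CPM at ZT0 and 22.7, 17.3, 28.4 and 23.9 CPM at ZT8 (amplitude 0.91 ± 0.11, peak ZT19.8 ± 0.47 h, adjusted p = 0.000398). Both were chosen after their values were seen, because their rhythm differed from WT.

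Departures from a plain 24 h curve were also tested. A 12 h component, tested with limma beside the 24 h one, was present in 23 of 12468 genes (0.184%), with 1790 at an unadjusted p under 0.05. Among the genes that passed, Per1 had the largest 12 h amplitude, 0.90 ± 0.13 (limma adjusted p = 0.0137), followed by Camk1d with 0.70 ± 0.11 (0.0304). For Per1 the 12 h component peaked at 9.6 h, and the levels showed a steep rise and a slower fall. They rose from 1.09, 1.96 and 1.75 CPM at ZT4 to 24.6, 15, 18.2 and 20.2 CPM at ZT8. At ZT12 they were 48.8, 28.6, 31.2 and 30.05 CPM. They then fell to 11.5, 14.5 and 13.4 CPM at ZT16 and 10.997, 7.09 and 8.26 CPM at ZT20. Of the 23 genes 18 also had a called 24 h rhythm, and in 4 the 12 h amplitude was the larger. The count was unstable. It was 4 with the replicate block. It was 39, 45, 50 and 38 without ZT0 replicate 2, ZT4 replicate 3, ZT8 replicate 3 and ZT12 replicate 3. It was 10, 5, 11, 11 and 6 without ZT0 replicate 3, ZT4 replicate 2, ZT8 replicates 1 and 4, and ZT12 replicate 2, and 6, 8, 14, 12 and 12 without ZT16 replicates 1, 2 and 3 and ZT20 replicates 2 and 3.

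Set beside WT, most rhythms were shared. JTK_CYCLE called 5384 of 18824 genes in WT (28.6%), from 22 libraries against 20 in GR LKO. Without replicate 4 the counts were 4305 in WT and 4257 in GR LKO. In the main calls 3318 genes were called in both genotypes, 69.9% of the GR LKO calls and 61.6% of the WT calls. Among the 3296 of these with fitted peaks in both, the median peak was 0.102 h later in GR LKO and the median absolute difference 0.761 h. For 2962 (89.9%) it was under 2 h. Median amplitudes were 0.35 in GR LKO and 0.34 in WT. Some lists ran apart in their calls, with 8 genes in GR LKO and 28 in WT of 55 for oxidative phosphorylation, 8 and 18 of 33 for the proteasome, 11 and 24 of 49 for the acute phase and complement, and 18 and 9 of 33 for the cell cycle. Counts were 5 and 10 of 15 for gluconeogenesis and 8 and 15 of 21 for glycolysis and glucose uptake. They were 11 and 20 of 34 for fatty acid oxidation and ketogenesis and 3 and 7 of 9 for the urea cycle. A further 1430 genes were called in GR LKO alone and 2066 in WT alone, but being called in a single genotype does not show a difference. The interaction of genotype with the 24 h curve, tested with limma over all 42 libraries, found 51 of 12834 genes (0.397%), and 1263 at an unadjusted p under 0.05. Of the 1361 genes called only in GR LKO that entered this test 11 passed it. In the oxidative phosphorylation, proteasome and cell cycle lists 0 genes passed it, and in the acute phase and complement list 1, Saa4, which passed in only 19 of 46 alternatives and is not read further. In the glycolysis list 0 genes passed it, and in the gluconeogenesis, fatty acid oxidation and urea cycle lists 1 each. All genes of the core clock and clock output lists missed its threshold, the smallest limma adjusted p among those named here being 0.0954 for Csnk1d, 0.104 for Por and 0.28 for Cry2. The count of 51 moved by more than 1.5 times without single libraries. It was 27 without ZT0 WT replicate 2, 30 without ZT12 GR LKO replicate 2 or ZT16 WT replicate 1, 31 without ZT16 WT replicate 3, and 32 without ZT0 GR LKO replicate 1 or any ZT16 GR LKO replicate. Without ZT20 GR LKO replicate 1 it was 62. With time point as a factor it was 82, and with the replicate block 32.

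Of the 49 differing genes with amplitudes in both genotypes, 29 had the smaller one in GR LKO, while of the 3296 shared rhythms 1805 had the larger one there. Nucks1, a chromatin-associated protein gene, had the smallest p. In GR LKO it read 58.1, 58.3 and 62.5 CPM at ZT0 and 57.3, 47.3 and 52.7 CPM at ZT16, and in WT 51.3, 49.5 and 60.7 CPM at ZT0 and 91.7, 75.1, 82.3 and 85.7 CPM at ZT16. The ZT16 libraries of the genotypes did not overlap. Its amplitude was 0.09 ± 0.03 against 0.39 ± 0.04 in WT (limma adjusted p of the difference = 3.19e-06). It was not called rhythmic in GR LKO (JTK_CYCLE adjusted p = 0.131), though it was at 0.0369 without replicate 1 of ZT4. St3gal5, the GM3 ganglioside synthase, kept its phase with a smaller swing. It read 73.4, 55.3 and 60.6 CPM at ZT16 and 31.8, 33 and 26.7 CPM at ZT4 in GR LKO, against 169, 127, 166 and 139.7 CPM at ZT16 and 32.7, 28.9 and 37.9 CPM at ZT4 in WT. The genotypes were apart at ZT16 and overlapped at ZT4. Amplitudes were 0.44 ± 0.07 and 1.30 ± 0.08 (adjusted p = 4.13e-05). E030018B13Rik, an unnamed transcript, was nearly absent in GR LKO, with 0, 0.08 and 0.0789 CPM at ZT16 against 6.42, 6.4, 10.7 and 4.26 CPM in WT (adjusted p = 5.47e-05 in limma, but 0.892 in edgeR). Other differences, chosen after their values were seen, held in all 46 alternatives tried. Eif4ebp3, a repressor of translation initiation, had an amplitude of 0.43 ± 0.13 against 1.91 ± 0.16 in WT (adjusted p = 0.000191) and was not called rhythmic in GR LKO (JTK_CYCLE adjusted p = 0.215). Fkbp5 had 0.44 ± 0.07 against 1.37 ± 0.15 (0.0219), and Asl, a urea cycle enzyme, 0.28 ± 0.06 against 0.66 ± 0.04 (0.0182). In others the fitted peaks lay apart. The interaction test covers amplitude and phase together. Amplitudes in GR LKO and WT were 0.91 and 1.25 for Tsc22d3, 0.87 and 0.82 for Plin5, and 0.28 and 0.43 for Gfra1. Tsc22d3 peaked at ZT19.8 ± 0.47 h in GR LKO and ZT17.1 ± 0.31 h in WT (0.0182), Plin5, a lipid droplet protein gene, at ZT21.7 ± 0.38 h and ZT18.1 ± 0.47 h (0.0136), and Gfra1, a receptor of the GDNF family, at ZT10.4 ± 0.43 h and ZT14.9 ± 0.45 h (0.00102). A rhythm larger in GR LKO was seen in Lbp, the lipopolysaccharide-binding protein. It had 51.6, 47 and 51.9 CPM at ZT4 and 20.1, 31 and 30.9 CPM at ZT20 in GR LKO, and 59.1, 50.5 and 57.5 CPM at ZT4 and 58.3, 57.1, 46.5 and 52.4 CPM at ZT20 in WT, with amplitudes of 0.46 ± 0.06 and 0.06 ± 0.05 (0.0234).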

How the data were processed

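The authors deposited expected counts per gene, that is estimated counts made from the reads with FastQC, MultiQC and Salmon on mm10, as 1 column per library. They are not whole numbers, so counts were rounded for edgeR and DESeq2. Of 27654 gene identifiers 27244 had a symbol. JTK_CYCLE, with the exact Jonckheere-Terpstra null for the unequal group sizes and 6 phases, ran on variance-stabilised values from DESeq2 1.42.0 over all 42 libraries, with Benjamini-Hochberg adjustment over every gene counted in the group. Cosinor amplitudes, peaks, the 12 h component and the genotype interaction came from limma 3.58.1 with trend on log2 CPM (prior count 2, TMM) for genes past filterByExpr (minimum count 10), and the Nr3c1 comparison from edgeR 4.0.16, in R 4.3.3. Adjusted p values given without a tool are those of JTK_CYCLE, except those of a difference between the genotypes, which are those of the limma interaction. Named genes were Nr3c1, all core clock and output genes, the 2 called members of lowest p of each other list, the most abundant gene of each marker list, for each window the 4 called genes of largest amplitude with a highest time point of at least 10 CPM and apart from the lowest in every library, the 3 largest 12 h amplitudes and the 3 lowest p values for a genotype difference. Some genes met by this rule are not reported here. Eps8l2, Mup15 and Trip12 were added after their values were seen. The members and the lists were chosen with earlier results of these data known. Promoter letters came from RefSeq entries outside chromosome 18.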

Additional observations from a re-analysis of the deposited data

Results flagged for a closer look

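Among the libraries of each time point of 4 replicates, Dixon's test picked out 17 single values in 248 groups (6.85%), and about 1 in 20 groups would be picked by chance. At ZT12 these were Arntl at 0.619 CPM in replicate 3, Clock at 2.14 CPM in replicate 2 and Npas2 at 0.335 CPM in replicate 4, each above companions at or near 0. Per1 stood at 48.8 CPM in replicate 1, Csnk1d at 61.5 CPM in replicate 4, Pdk4 at 7.9 CPM and Insig2 at 76.3 CPM in replicate 3, Gldc at 47.1 CPM in replicate 1, Mybbp1a at 59.1 CPM in replicate 4 and Cfd at 35 CPM in replicate 3. At ZT8 they were Ciart at 11.9 CPM, Amdhd1 at 235 CPM and Igfbp4 at 1200 CPM in replicate 4, Coq10b at 44.5 CPM and Hsph1 at 7.23 CPM in replicate 2, and Hbb-bs at 541 CPM and Gfra1 at 104 CPM in replicate 3.

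Some named or listed genes had a rhythm that differed between the genotypes in the limma interaction test. Adjusted p values were 3.19e-06 for Nucks1, 4.13e-05 for St3gal5, 5.47e-05 for E030018B13Rik, 0.000191 for Eif4ebp3, 0.00102 for Gfra1, 0.00469 for Id2, 0.0124 for Gpt2, 0.0136 for Plin5, 0.0182 for Asl, 0.0182 for Tsc22d3, 0.0219 for Fkbp5 and 0.0234 for Lbp. Weaker ones were 0.0356 for Vegfa, 0.0359 for Gas6, 0.0435 for Saa4, 0.0478 for Acox2, 0.0478 for Lpin2 and 0.0498 for Foxa2. These 6 stayed under 0.05 in only 30, 33, 19, 13, 6 and 12 of 46 alternatives and are not read further.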

How the results depend on the processing

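The 4748 rhythmic genes in GRLKO on control diet became 4733 with values stabilised in this genotype alone, 4861 on log2 CPM, 5107 among genes past filterByExpr, 4959 without an amplitude threshold and 2161 with an amplitude over 0.25. Cosinor tests gave 6343 (edgeR), 6345 (limma) and 6633 (DESeq2), any difference between time points 5222, and the libraries without replicate 4 4257. Leaving out 1 library gave 4190 to 4924. The WT count of 5384 became 2214 with an amplitude over 0.25 and 4305 without replicate 4, and leaving out 1 library gave 5071 to 5459. The 12 h count of 23 became 32 on stabilised values, 24 in edgeR and 5 to 50 without 1 library. The 51 rhythm differences became 45 in edgeR, 82 with time point as a factor and 27 to 62 without 1 library. Under amplitude and phase of rhythmic genes, the median amplitude of 0.33 became 0.236876 on stabilised values, 0.336 with prior count 0.5 and 0.3251 to 0.340765 without 1 library. With the replicate number as a replicate block the edgeR cosinor counts went from 6343 to 6016 for GR LKO and from 6976 to 6776 for WT, and the limma counts from 23 to 4 for the 12 h component and from 51 to 32 for the difference. Libraries of the same number correlated at a mean of 0.00738 (-0.104 to 0.114), those of other numbers at -0.00283. Of 20 libraries, 9 correlated best with their own number. No clear pairing by number was seen, and shared handling was not tested. Without replicate 4, Csnk1d (0.0575), Nlrp12 (0.0669), Csf3r (0.0715), Arhgap5 (0.0829), ENSMUSG00000074828 (0.0829), Hlf (0.0887) and Bcl9l (0.125) lost their calls. Of 110 named genes the call was the same in 109 on log2 CPM, 103 without replicate 4 and 98 in every fit without 1 library. E030018B13Rik did not enter the edgeR, limma and DESeq2 fits of GR LKO alone. There the call was the same for 105 named genes in edgeR, 104 in limma and 102 in DESeq2. It was the same for 101 with the block and 100 for any difference between time points. After seeing the data, genes listed at 0 in a library though abundant were left out, which gave 4730 genes.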
